A study of Mus musculus with 10 samples.

Results

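The 10 genes described here, Setdb1, Trim28, Atf7ip, Tasor, Mphosph8, Pphln1, Morc2a, Morc3, Rif1 and Hells, encode proteins that silence retrotransposons in mouse cells. They were chosen by name, out of 21887 protein-coding genes, as machinery that acts with the m6A reader YTHDC1. A peak was counted for a gene if its midpoint lay within the RefSeq span of the gene on mm10, from the first to the last annotated base. The series profiled RNA of male mouse embryonic stem cells derived from the inner cell mass of 129 strain embryos and grown without feeders in serum and LIF. The Mettl3 knockout group (Mettl3-KO, 2 m6A precipitates and 2 inputs) was set against the Mettl3 wild-type group (Mettl3-WT, 2 precipitates and 2 inputs), both from polyA RNA. A Halo-Ythdc1 knockin line gave 1 pull-down of YTHDC1-bound total RNA (RNA immunoprecipitation, RIP) and 1 input. The sources used here do not say how the Mettl3 allele was disrupted, or whether the knockout samples are 1 clone or several. Knockout samples were recognised by their titles, since their cell type field says wild type.

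Retrotransposons in embryonic stem cells are silenced mainly by methylation of histone H3 at lysine 9. KRAB zinc finger proteins bind the elements and recruit the corepressor TRIM28, which brings the methyltransferase SETDB1 with its stabilising partner ATF7IP. The HUSH complex of TASOR, MPP8 (encoded by Mphosph8) and periphilin (Pphln1) spreads the mark together with the ATPase MORC2, and MORC3, RIF1 and the chromatin remodeller HELLS act on overlapping sets of elements. m6A is written on nascent RNA by METTL3 and its partners, and YTHDC1, which reads it in the nucleus, has been linked in mouse embryonic stem cells to the recruitment of SETDB1 to retrotransposon RNA. The peaks counted here lie in the genes of the silencing machinery itself. No strand of the peaks, exons or repeats were used. RNA of the gene itself, of an overlapping gene and of a retrotransposon within the span therefore cannot be told apart.

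The values are positions in 3 deposited peak lists, 6764 peaks for knockout m6A, 12368 for wild-type m6A and 30992 for YTHDC1 RIP, with no height, strand, read count or value per replicate. The spread between replicates is thus unknown, no genotype difference below was tested, and all intervals (exact Clopper-Pearson, 95%) cover counting only. The label of only 1 knockout precipitate points to the knockout list, while that of the other points to the wild-type list, as do those of both wild-type samples. Which samples entered each m6A list is therefore not settled. In both genotypes, m6A peak here means a peak of the m6A precipitates. Whether the peaks of the knockout list mark m6A was not tested. The RNA came from whole cultures, in which fewer cells carrying an RNA and less of it per cell cannot be told apart. Of 10 embryonic stem cell markers, 7 had a knockout m6A peak, 7 a wild-type m6A peak and 9 a RIP peak. Of 12 markers of fibroblasts, endoderm, neural cells and trophoblast, 2 had a knockout m6A peak (Thy1 and Nes), 3 a wild-type m6A peak (Pdgfrb, Sox1 and Nes) and 3 a RIP peak.

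YTHDC1 RIP peaks were found in 9 of the 10 silencing genes, knockout m6A peaks in 4 and wild-type m6A peaks in 6. Among all protein-coding genes 42.2% had a RIP peak, 18.2% a knockout m6A peak and 30.3% a wild-type m6A peak. Among the 11318 protein-coding genes that any list reached, these shares were 35.2% for knockout m6A, 58.6% for wild-type m6A and 81.7% for RIP, and of the 9 silencing genes reached, 4, 6 and 9 had such a peak. The 10 spans held 13 knockout m6A peaks, 22 wild-type m6A peaks and 63 RIP peaks in all. Atf7ip held 10 of the 13 knockout peaks (76.9%), and the other 9 genes held 3. The spans ran over 6.88 to 93.6 kb (median 42.65 kb), against a median of 17.2 kb for protein-coding genes. The part of span length in these counts was not tested.

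**Figure D1:**
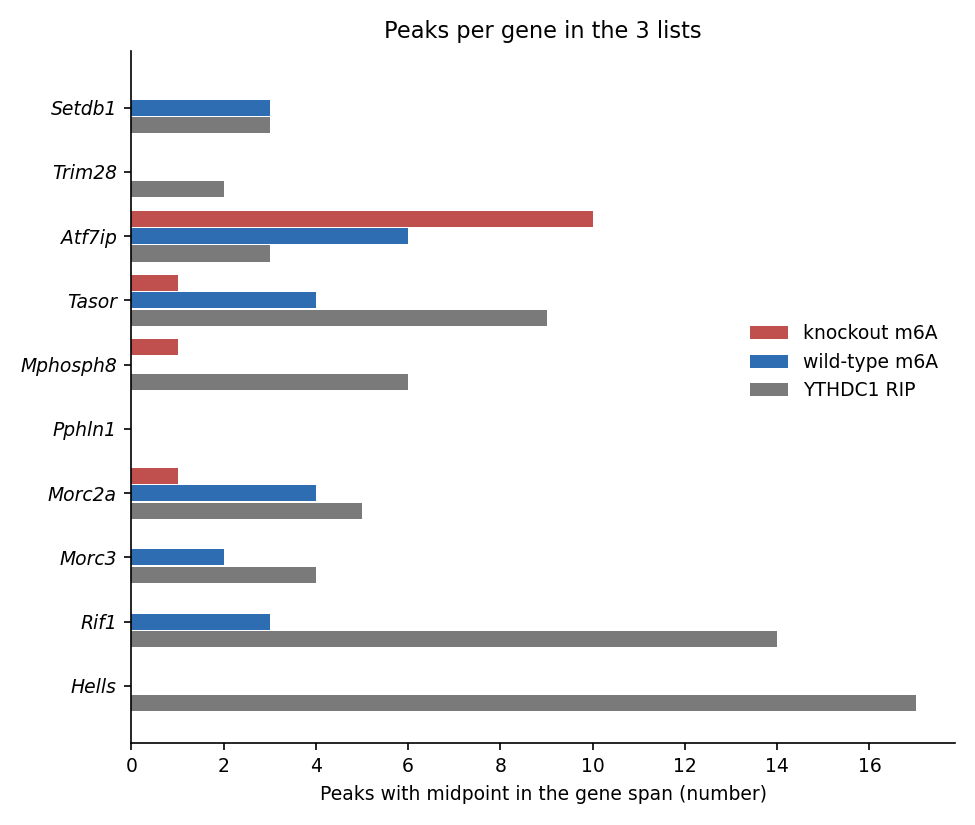
Number of peaks (horizontal axis) with midpoint in the span of each silencing gene (rows), with a bar each for the knockout m6A, wild-type m6A and YTHDC1 RIP lists. Atf7ip stands apart in the knockout list with 10 peaks, Hells and Rif1 lead the RIP list with 17 and 14, and Pphln1 has none in any list.

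The genes fell into 5 patterns. Atf7ip, Tasor and Morc2a had a peak in all 3 lists, a pattern of 9.25% of protein-coding genes, and these 3 were also the genes with an m6A peak in both genotypes (11.5% of protein-coding genes). Setdb1, Morc3 and Rif1 had no knockout m6A peak and at least 1 wild-type m6A peak (18.8% of protein-coding genes). The knockout peak of Tasor also lies in the overlapping gene Ccdc66. With each peak given to 1 gene only, Tasor moved to this second pattern, which then held 4 genes. Mphosph8 alone had a knockout m6A peak and no wild-type m6A peak (6.66%). Trim28 and Hells had RIP peaks without m6A peaks in either genotype (14.8%). Pphln1 had no peak in any list, as did 48.3% of protein-coding genes. Genes without any peak are part of the base of each share above.

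Peaks reached the promoter window (250 bases before to 50 after a listed transcript start) in 3 of the 9 silencing genes that have one in RefSeq, against 19.4% of protein-coding genes with such a window. The 3 windows are shown because they are where the lists meet the start of the RNA. Rif1 has no entry. Capitals mark the bases that lie in a peak, on the strand of the gene, build GRCm38.p6. In Morc2a (chr11:3649187-3649486, plus strand) 179 bases lay in a RIP peak, the last of them also in a wild-type m6A peak. In Mphosph8 (chr14:56667998-56668297, plus strand) 47 bases lay in the gene's single knockout m6A peak. In Atf7ip (chr6:136518601-136518900, plus strand) 52 bases lay in a RIP peak.
Morc2a: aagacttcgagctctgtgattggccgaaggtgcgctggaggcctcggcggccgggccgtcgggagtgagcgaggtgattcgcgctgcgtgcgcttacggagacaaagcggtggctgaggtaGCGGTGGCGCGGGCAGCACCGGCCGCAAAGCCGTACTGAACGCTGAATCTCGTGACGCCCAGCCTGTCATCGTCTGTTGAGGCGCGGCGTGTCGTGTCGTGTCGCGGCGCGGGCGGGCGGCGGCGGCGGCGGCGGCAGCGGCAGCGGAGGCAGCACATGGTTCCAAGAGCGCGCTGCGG
Mphosph8: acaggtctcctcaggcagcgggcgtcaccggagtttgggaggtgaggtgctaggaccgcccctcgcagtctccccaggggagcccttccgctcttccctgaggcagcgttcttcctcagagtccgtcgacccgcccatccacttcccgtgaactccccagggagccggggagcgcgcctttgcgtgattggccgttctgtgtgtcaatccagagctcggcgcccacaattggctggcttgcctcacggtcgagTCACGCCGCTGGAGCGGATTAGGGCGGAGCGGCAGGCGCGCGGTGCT
Atf7ip: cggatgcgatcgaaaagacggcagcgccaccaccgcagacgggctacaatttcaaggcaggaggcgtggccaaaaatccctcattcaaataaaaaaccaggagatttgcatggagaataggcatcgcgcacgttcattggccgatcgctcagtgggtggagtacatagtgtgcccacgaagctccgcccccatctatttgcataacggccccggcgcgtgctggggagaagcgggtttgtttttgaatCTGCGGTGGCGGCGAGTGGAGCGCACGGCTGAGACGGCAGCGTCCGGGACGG

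The GC content of these windows was 70.3% in Morc2a, 67% in Mphosph8 and 58.7% in Atf7ip, against a median of 52.7% over all 32851 promoter windows. The windows of silencing genes that no peak reached ran from 28.3% (a second Morc2a window) to 76.7% (Pphln1). Tasor had 68% and Hells 65.7%. High GC was thus not particular to the windows that a peak reached. The motif GGACT, a common form of the m6A consensus, was searched on both strands, as were its variants GGACC, which ends in a different base, and similarly GGACA, and no 2 of them can overlap on 1 strand. None lay within the capitals of the 3 windows on either strand. The capitals cover 179 bases in Morc2a, 47 in Mphosph8 and 52 in Atf7ip. In Atf7ip they lie in a RIP peak only, and in Morc2a only the last of them lie in an m6A peak. The parts of the m6A peaks outside the windows were not searched. The shares below are for whole windows of 300 bases and cannot be set against the shorter capitals. Outside the capitals, the Mphosph8 window held 1 GGACC on its own strand and 1 GGACT on the other. At least 1 of the motifs occurred on the gene's strand in 60.2% and on either strand in 83.9% of all promoter windows. GGACT alone was on either strand of 45.5%, GGACC of 45.5% and GGACA of 47.9%.

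Setdb1, which encodes the H3K9 methyltransferase (chromosome 3, 95323525 to 95357202, minus strand), carried no knockout m6A peak and 3 wild-type m6A peaks. The wild-type peaks were 550 bp wide at 55% of the span from its 5′ end (95338401 to 95338950), 600 bp at 87.9% (95327301 to 95327900) and 250 bp at 98.2% (95324001 to 95324250). The last of them had its midpoint 0.601 kb from the 3′ end of the gene. The nearest knockout m6A peak on the chromosome was 3700 bp from this last peak and outside the span. The 3 RIP peaks of Setdb1 were 226, 160 and 110 bp wide at 1.06, 7.68 and 20.3 kb from the 5′ end, and none overlapped an m6A peak. RIP peaks thus lay in the first 60.3% of the gene, with the wild-type m6A peaks from 55% on.

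Trim28, the corepressor that links KRAB zinc finger proteins to SETDB1 (chromosome 7, 13024152 to 13031032, plus strand), is the shortest of the 10 spans at 6.88 kb. It held no m6A peak in either genotype. Its 2 RIP peaks were 345 bp (13024817 to 13025161) and 74 bp wide (13026570 to 13026643), at 12.2% and 35.7% of the span.

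Atf7ip encodes the partner that stabilises SETDB1 (chromosome 6, 136518789 to 136610850, plus strand). It had more peaks in the knockout m6A list (10) than in the wild-type list (6). Whether these knockout peaks mark m6A was not tested. Only 2 protein-coding genes had more knockout peaks. At least 10 were found in 6, Atf7ip included, of which 4 had a span no longer than that of Atf7ip. These ranks count narrow peaks too. Only the Atf7ip knockout peaks of 750 and 300 bp were wider than the list median of 250 bp, and ranks among wider peaks were not computed. The Atf7ip span of 92.1 kb exceeds that of 87.8% of protein-coding genes. At least 6 wild-type peaks were found in 108 protein-coding genes. All peaks of both genotypes lay past 45% of the span, the knockout ones from 48.9 to 94.1% and the wild-type ones from 45.6 to 95.7%.

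Within Atf7ip, 3 peaks of each genotype coincided. The widest knockout peak of all the silencing genes, 750 bp (136587001 to 136587750), contained the 600 bp wild-type peak at 136587101 to 136587700, and 99.4% of the peaks of the knockout list were narrower. The second pair was a 200 bp knockout peak (136563701 to 136563900) over a 150 bp wild-type peak (136563751 to 136563900). The third was a 200 bp knockout peak (136564951 to 136565150) over a 100 bp wild-type peak (136564951 to 136565050). In each pair the knockout peak was the wider one.

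The other 7 knockout peaks of Atf7ip were 100 to 300 bp wide and overlapped no wild-type peak. They lay between 52.7 and 86.6 kb from the 5′ end, and the gap to the nearest wild-type peak ran from 1000 to 8650 bp. The 3 wild-type peaks without a knockout partner lay outside this stretch, before all knockout peaks of the gene at 42 and 42.3 kb (400 and 250 bp wide) and after them at 88.1 kb (600 bp wide, 136606551 to 136607150). No m6A peak of Atf7ip overlapped a RIP peak. Its 3 RIP peaks were 209, 215 and 290 bp wide at 0.164, 41.1 and 81.4 kb, and the last lay 191 bp from a knockout peak of 300 bp (136599601 to 136599900). The middle one lay 564 bp from the first wild-type peak.

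**Figure D2:**
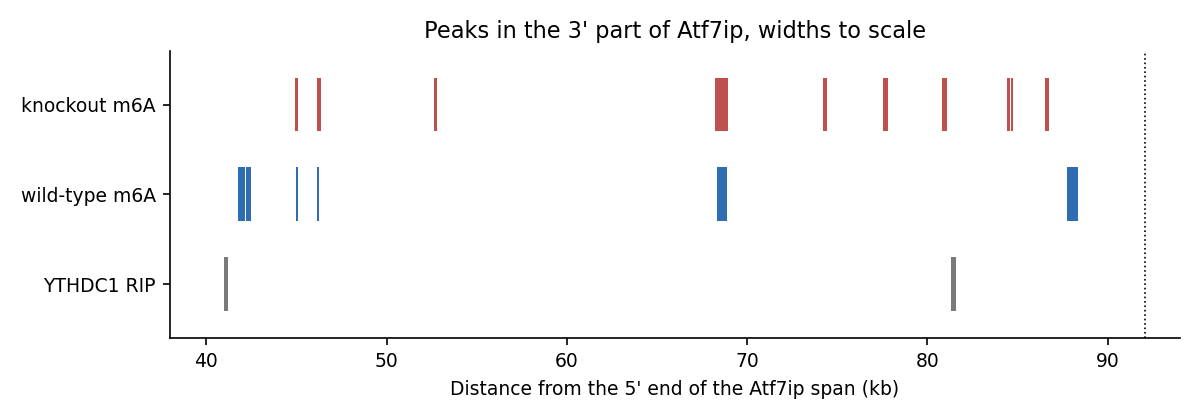
Peaks of Atf7ip in the knockout m6A, wild-type m6A and YTHDC1 RIP lists (rows) by distance from the 5′ end of the gene span in kb, with widths to scale and the dotted line at the 3′ end of the span. 6 of the 10 knockout peaks lie between the wild-type peaks at 68.6 and 88.1 kb, and 3 peaks coincide between genotypes; the RIP peak at 0.164 kb is outside the range drawn.

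Tasor, the scaffold subunit of HUSH (chromosome 14, 27423674 to 27483555, plus strand), had 1 knockout m6A peak and 4 wild-type m6A peaks, none of them overlapping. The knockout peak of 200 bp (27482751 to 27482950) lay at 98.8% of the span, 1350 bp beyond the last wild-type peak. The wild-type peaks were 500, 150, 400 and 350 bp wide and lay at 81, 94.2, 95.3 and 96.1%. The span overlaps that of Ccdc66, which is transcribed from the other strand, and the midpoints of the knockout peak and of the 350 bp wild-type peak lie in both. Without strand in the lists these 2 peaks cannot be assigned to Tasor rather than Ccdc66. With each peak given to 1 gene only, Tasor kept no knockout peak and 3 wild-type peaks, and the number of silencing genes with a knockout peak became 3.

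Tasor also carried 9 RIP peaks, from 118 to 446 bp wide, of which 5 were exactly 200 bp. The widest (27428917 to 27429362) began 83 bp after the listed transcript start. A 226 bp RIP peak upstream of that start lies within a long non-coding RNA gene on the other strand as well. The ninth RIP peak, 200 bp wide (27480718 to 27480917), lay within the 400 bp wild-type m6A peak at 27480551 to 27480950, so the 3′ region of Tasor was 1 of 3 places in the silencing genes where an m6A and a RIP peak met. The nearest knockout m6A peak was 1833 bp from it.

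Mphosph8, which encodes MPP8, the HUSH subunit that binds methylated H3K9 (chromosome 14, 56668235 to 56697430, plus strand), had no wild-type m6A peak. Its 1 m6A peak came from the knockout list, was 200 bp wide (56668251 to 56668450) and began 3 bp after the listed transcript start, and the promoter sequence above ends inside it. The nearest wild-type m6A peak was 109650 bp away. The knockout peak overlapped the first of 6 RIP peaks, 248 bp wide (56668315 to 56668562). The other 5 RIP peaks were 56 to 332 bp wide, with 4 of them between 1.21 and 6.13 kb and the last at 25.8 kb of the 29.2 kb span. Pphln1, the third HUSH subunit gene (chromosome 15, 93398345 to 93491913, plus strand), has the longest span of the 10, at 93.6 kb, and had no peak in the 3 lists.

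Morc2a, the mouse gene of the HUSH-associated ATPase MORC2 (chromosome 11, 3649189 to 3690477, plus strand), had the widest m6A peaks of the silencing genes. It had 1 knockout peak of 300 bp (3683751 to 3684050), against 4 wild-type peaks of 1050, 200, 150 and 1300 bp. The knockout peak enclosed the 200 bp wild-type peak (3683801 to 3684000) at 84.1% of the span. The 1300 bp peak (3688951 to 3690250) lay at 97.9%, and 95.7% of the wild-type list was narrower. The 1050 bp peak (3649451 to 3650500) began 14 bp after a listed transcript start. Every other wild-type m6A peak of the 9 genes with a strand lay at 45.6% of its span or further.

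That 1050 bp peak of Morc2a overlapped 2 RIP peaks, 204 bp (3649308 to 3649511) and 219 bp wide (3649514 to 3649732), which were 2 bp apart. The promoter sequence above ends within the first of them. The other 3 RIP peaks of Morc2a were 200, 59 and 390 bp wide at 7.46, 7.77 and 30.7 kb and overlapped no m6A peak.

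Morc3, a related ATPase that silences endogenous retroviruses in mouse embryonic stem cells (chromosome 16, 93832121 to 93876077, plus strand), had no knockout m6A peak and 2 wild-type m6A peaks. The wild-type peaks were 550 bp (93870701 to 93871250) and 300 bp wide (93874851 to 93875150), at 88.4 and 97.6% of the span. Its 4 RIP peaks, 144 to 210 bp wide, all lay in the first 51.4% of the span. The RIP peaks of Morc3 thus all lay before its m6A peaks, 15874 bp apart at the nearest.

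Hells and Rif1 had the most RIP peaks. Hells, the SNF2-type remodeller needed for DNA methylation of repeats (chromosome 19, 38930262 to 38970470, plus strand), held 17 RIP peaks and no m6A peak in either genotype. Only 6 protein-coding genes had more RIP peaks, and no other gene had as many on a span as short as its 40.2 kb. Only its peaks of 220, 232, 266, 210 and 439 bp were wider than the list median of 203 bp. Ranks of Hells and Rif1 with close peaks merged or narrow ones left out were not computed. The Hells peaks were 46 to 439 bp wide, ran from 1.13 to 40 kb, and came as close as 19 bp to each other. The nearest knockout m6A peak was 534879 bp from any of them and the nearest wild-type one 14379 bp.

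Rif1, a replication timing factor that also represses retroviral elements in mouse embryonic stem cells (chromosome 2, 52072815 to 52126769), held 14 RIP peaks, a number that 17 protein-coding genes reached. These were 50 to 389 bp wide, and 2 were exactly 200 bp. Rif1 had no knockout m6A peak, and the nearest on the chromosome was 597826 bp from its RIP peaks. It had 3 wild-type m6A peaks of 150, 200 and 400 bp (52110151 to 52112700 from the first to the last base). They sat in the longest stretch of the gene without RIP peaks, 12.7 kb, between the tenth and the eleventh of the 14.

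**Figure D3:**
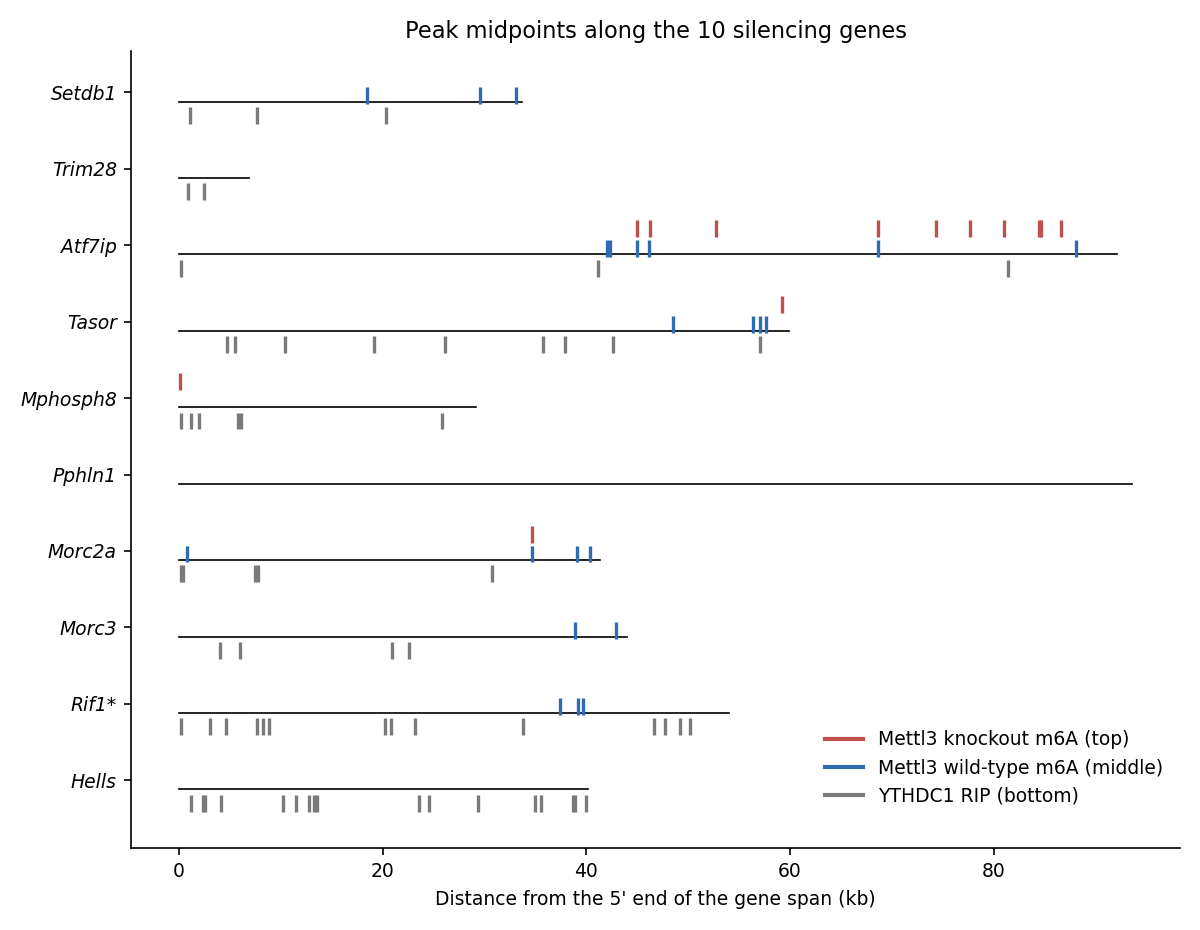
Midpoints of knockout m6A (top ticks), wild-type m6A (middle) and YTHDC1 RIP peaks (bottom) along the 10 silencing genes (rows), by distance from the 5′ end of the span in kb, with the black line as the span; Rif1, marked with an asterisk, has no strand here and is drawn from its lower coordinate. Wild-type m6A peaks lie mostly to the right, RIP peaks are spread over the spans, and Atf7ip holds 10 of the 13 knockout ticks.

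Between the genotypes, 4 of the 13 knockout peaks of the silencing genes overlapped a wild-type peak (30.8%, 9.09 to 61.4%), against 21.3% of knockout peaks in all protein-coding spans. In turn 4 of the 22 wild-type peaks overlapped a knockout peak (18.2%, 5.19 to 40.3%), against 11.7% over protein-coding spans. Both intervals include the share over protein-coding spans, but they count peaks as separate and do not speak for the genes as a set. Of the 4 pairs, 3 lay in Atf7ip and 1 in Morc2a. Without Atf7ip, a choice made after seeing the data, 1 of 3 knockout peaks (33.3%) had a wild-type partner, and 1 of 16 wild-type peaks (6.25%) a knockout partner.

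Along the 9 genes with a strand, 8 of the 13 knockout peaks and 12 of the 19 wild-type peaks had their midpoint at or beyond 80% of the span. These shares were 61.5% (31.6 to 86.1%) and 63.2% (38.4 to 83.7%). Over all protein-coding genes with a strand, the share was 17% for knockout peaks and 57.7% for wild-type peaks. The knockout share of the silencing genes was above that of the list, but 6 of its 8 peaks were in Atf7ip. Another was the Tasor peak that also lies in Ccdc66. The interval counts peaks as separate, though 10 of the 13 lay in Atf7ip, so it does not speak for the genes as a set. The share over all genes gave each peak to 1 gene, and the counts in the silencing genes did not. For RIP peaks the share was 16.3% (8 of 49, 7.32 to 29.7%), against 23% over protein-coding genes.

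The strand given by the promoter table also placed the peaks close to gene ends. Over protein-coding genes, 28.8% of knockout peaks had their midpoint within 200 bp of the 5′ end of the span and 0.494% within 200 bp of the 3′ end. For wild-type peaks these shares were 3.14% and 1.32%. In the silencing genes only the knockout peak of Mphosph8 lay that close to an end (1 of 13, 7.69%), at 0.116 kb from the 5′ end, and no wild-type peak did (0 of 22, upper bound 15.4%). Within 1 kb of a listed start, a window chosen after seeing the data, lay the nearest peak of 1 of the 4 silencing genes with a knockout peak, against 74.3% of such protein-coding genes. For wild-type m6A it was 1 of 5, against 20.2%. For RIP it was 7 of 8, against 42.5%, with distances of 0 to 944 bp in these 7 and 1007 bp in Morc3. A gene with more peaks has more chances of 1 near a start. These 8 genes held 2 to 17 RIP peaks each, against a median of 2 among protein-coding genes with a RIP peak. The part of peak number in this share was not tested.

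Overlaps between m6A and RIP peaks were few in the silencing genes, as over protein-coding spans. Of the knockout m6A peaks 1 of 13 overlapped a RIP peak (7.69%, 0.195 to 36%), in Mphosph8, against 21.6% over protein-coding spans. Of the wild-type m6A peaks 2 of 22 did (9.09%, 1.12 to 29.2%), in Tasor and Morc2a, against 13.1%. Of the 63 RIP peaks 1 overlapped a knockout m6A peak (1.59%, 0.0402 to 8.53%) and 3 a wild-type m6A peak (4.76%, 0.993 to 13.3%), against 6.44% and 7.32% over protein-coding spans. Each of these shares lay below that over protein-coding spans, which each interval includes. The intervals count peaks as separate, though Atf7ip held 10 of the 13 knockout m6A peaks and Hells 17 of the 63 RIP peaks. They do not speak for the genes as a set. The median gap to the nearest RIP peak was 3617 bp for knockout and 4404 bp for wild-type m6A peaks, and 3054 and 5172 bp over protein-coding spans. The RIP list comes from total RNA and the m6A lists from polyA RNA, and the part of this difference in the overlaps was not tested.

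In width, knockout m6A peaks of the silencing genes had a median of 200 bp (100 to 750 bp), against 375 bp (100 to 1300 bp) for wild-type m6A peaks. Over protein-coding spans the medians were 250 and 400 bp. The 13 knockout peaks covered 3300 bp and the 22 wild-type peaks 9200 bp, and Atf7ip contributed 2600 bp of the knockout total and 2100 bp of the wild-type total. RIP peaks had a median of 200 bp (46 to 446 bp), and 12 of 63 (19%) were exactly 200 bp wide, against 29% over protein-coding spans. No RIP peak of the silencing genes reached 1000 bp, a width that 5.29% of the RIP peaks in protein-coding spans reached.

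**Figure D4:**
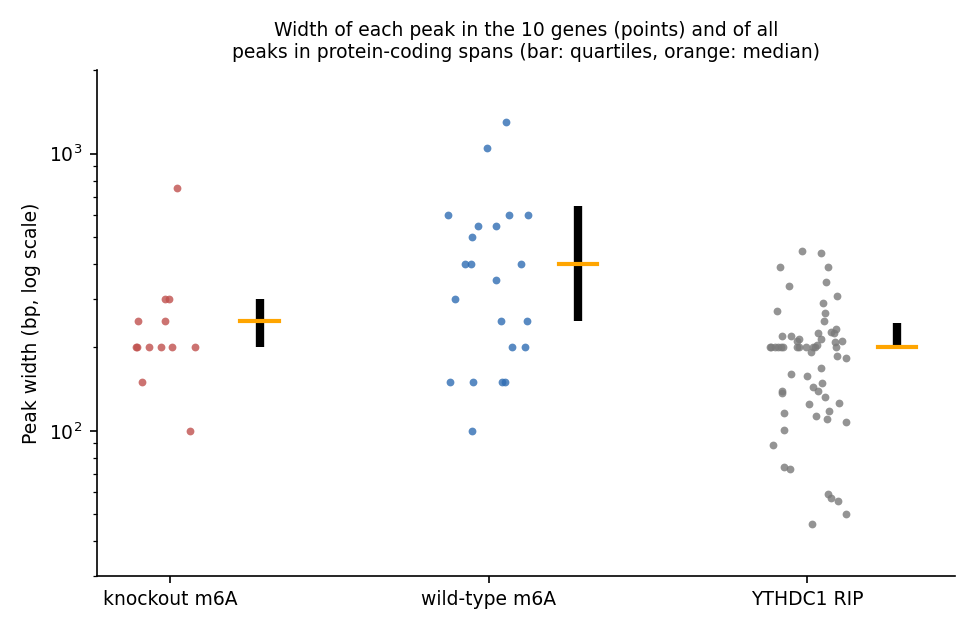
Width in bp (log scale) of each peak in the 10 silencing genes (points, shifted sideways at random for clarity) by list, with the quartiles (black bar) and median (orange line) of all peaks of that list in protein-coding spans. Knockout m6A points reach 750 bp and wild-type m6A points 1300 bp; RIP points reach 446 bp, on a scale not comparable with the m6A lists, whose peaks lie on a 50 bp grid.

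The wider silencing pathway was described with 42 partner genes, listed by role. Of these 22 had a knockout m6A peak (52.4%), 28 a wild-type m6A peak (66.7%) and 38 a RIP peak (90.5%). A wild-type and no knockout m6A peak was found in 12 (28.6%, against 18.8% of protein-coding genes), a knockout and no wild-type m6A peak in 6 (14.3%, against 6.66%), and a RIP peak with no m6A peak in 4 (9.52%, against 14.8%). These protein-coding shares count all genes, and 48.3% of them had no peak in any list. Shares of these patterns among the genes that any list reached were not computed. The counts by role rest on few genes each, and differences between roles were not tested. Over all protein-coding genes 18.2% had a knockout m6A peak and 30.3% a wild-type m6A peak. Of the 6 genes of H3K9 methyltransferases and cofactors other than SETDB1, 3 had a knockout m6A peak and 6 a wild-type m6A peak. Of the 12 genes grouped as HP1 and NuRD partners of TRIM28, 7 had a knockout peak and 6 a wild-type peak. This group also holds Trim24, Trim33 and Smarcad1, which are neither HP1 nor NuRD genes. Of 6 relatives of the silencing genes, 0 had a knockout peak and 4 a wild-type peak. Among these relatives, Morc2b and Morc4 had no peak in any list.

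The widest wild-type m6A peaks of the partner genes lay in the KRAB zinc finger genes Zfp568 (1500 bp) and Zfp57 (1050 bp), in Daxx, a chaperone of histone H3.3 (950 bp), in the methyltransferase gene Ehmt1 (900 bp) and in Chaf1a, a chromatin assembly factor (850 bp), which tied with Ythdc1 (850 bp). Zfp568 had no knockout peak. Chaf1a had 6 knockout and 7 wild-type peaks, and 5 of these wild-type peaks overlapped a knockout peak. The 6 genes with a knockout and no wild-type m6A peak were Cbx1 and Cbx5, which encode HP1 proteins, the NuRD helicase gene Chd3, the histone H3.3 genes H3f3a and H3f3b, and the histone chaperone gene Asf1a. Their widest knockout peaks measured 250 to 350 bp. The widest RIP peaks lay in Morc1, a germline relative of Morc3 (7499 bp), in Wiz, a partner of the EHMT enzymes (6317 bp), and in Resf1, a SETDB1-associated silencing factor (441 bp). Of the genes the study acted on, Ythdc1 had 4 knockout and 4 wild-type m6A peaks and 5 RIP peaks, and Mettl3 had none in any list, so its own peaks do not check the genotype labels.

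**Figure D5:**
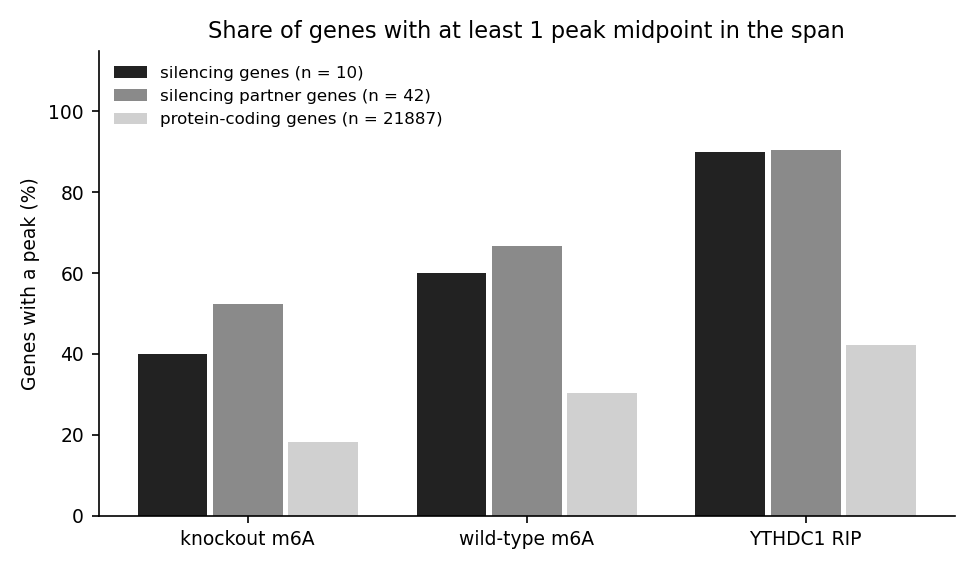
Share of genes (vertical axis, percent) with at least 1 peak midpoint in the span, for the 10 silencing genes, the 42 partner genes and all 21887 protein-coding genes, in each list. Silencing and partner genes are close to each other in the RIP list (90 and 90.5%), against 42.2% of all protein-coding genes. The bars count every gene. Among genes with a peak in any list, a RIP peak was found in 81.7% of protein-coding genes and in 9 of 9 silencing genes.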

How the data were processed

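Peaks of knockout m6A, wild-type m6A and YTHDC1 RIP RNA were given as 3 lists, without a value per sample. The authors deposited each list as chromosome, start and end of every peak, in bp. STAR 2.7, HISAT2 2.2.0, SAMtools 1.9, Trim Galore 0.6.4, MACS2 2.1.2 and build mm10 are named in the labels, per the submitters' processing notes. Which tool made which list, at what threshold, and whether replicates were pooled, is not given there. All m6A peaks lay on a 50 bp grid (100%), RIP peaks did not (0.513%), so widths are not comparable between these assays. Read depth is unknown.

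Gene spans and transcript starts came from RefSeq tables of GRCm38.p6, whose coordinates are those of mm10. Strand was known for 17492 of 21887 protein-coding genes and 9 of the 10 described. An overlap needed 1 shared bp. Position shares over all genes gave each peak to 1 gene, protein-coding first and then the shortest. No test between genotypes was possible, and counts are set beside all protein-coding genes or peaks. The described and partner genes, and the rule for partners named (5 widest wild-type, 3 widest RIP, every knockout-only gene), were chosen with earlier results of these data known. Alternatives concerned peak assignment, width, overlap and background. Scripts used Python 3.11.15, pandas 2.3.3 and scipy 1.17.1 and were tested on simulated intervals.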

Additional observations from a re-analysis of the deposited data

How the results depend on the processing

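Of 101 alternative values, 77 stayed within 1.5 times the count reported, or within its interval for a share, and 24 moved. Restricting each list to peaks wider than its median left 3 knockout, 8 wild-type and 23 RIP peaks in the silencing genes, 2 genes with a knockout peak, and 0 of 3 knockout peaks on a RIP peak (0%). Among peaks above the upper quartile of width there were 1 knockout, 2 wild-type and 7 RIP peaks, 1 gene each with a knockout peak, with a wild-type peak and with a wild-type peak alone. Without Atf7ip, a setting chosen after seeing the data, 3 knockout peaks were left. No knockout peak lay within 100 bp of a span end (0%). Partner genes with a peak above the median width numbered 9 for the knockout and 18 for the wild-type list. The share of background genes with a knockout, wild-type or RIP peak was 7.87, 19.8 and 27.4% above the median width. It was 12.2, 20.2 and 30.5% with long non-coding RNA genes added, and 35.2, 58.6 and 81.7% among coding genes that any list reached. Fewer peaks by construction account for the lower counts under the width limits. No paired analysis was possible because the lists carry no value per replicate, and no replicate could be left out for the same reason. The files carry no score, so a stricter peak threshold could be tried by width only.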
